A study of Mus musculus with 6 samples.

Results

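The small leucine-rich proteoglycans of intestinal fibroblasts were followed in 8 genes, Dcn (decorin), Bgn (biglycan), Lum (lumican), Fmod (fibromodulin), Ogn (osteoglycin), Prelp, Aspn (asporin) and Podn (podocan). They were taken by gene name as known members of the family, with earlier results of these data known, and all 8 were among the 15238 genes of the deposited table. RNA was sequenced in bulk from fibroblasts of the intestine of Balb/c mice at postnatal day 9, of which 3 libraries were wild-type (replicates 1, 3 and 4) and 3 were DdblGata1 (replicates 4, 9 and 10). The cells were sorted as podoplanin-positive and negative for CD45, EpCAM and CD31, after removal of the epithelium with EDTA and digestion with Liberase TL and DNase I. DdblGata1 mice are deficient in eosinophils because a GATA-binding element is deleted from the promoter of Gata1, a regulator of blood cell formation. The deletion is in the germ line, so the sorted fibroblasts carry it as well. Sex, litter, and whether a library stands for 1 pup or several are not given in the labels, so that p-values measure the spread between these libraries, which may be partly technical.

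Small leucine-rich proteoglycans are secreted proteins with a core of leucine-rich repeats, most of them with chondroitin, dermatan or keratan sulfate chains. They bind the surface of collagen fibrils and set fibril diameter and spacing, and several also bind growth factors of the TGF-beta family or cell surface receptors. Decorin, biglycan and asporin form class I of the family, fibromodulin, lumican and Prelp belong to class II, osteoglycin to class III, and podocan to a class apart. In connective tissue fibroblasts are their main source.

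The members lie in 3 clusters and at 2 separate loci of the mouse genome (GRCm38, GENCODE M21). Dcn (ENSMUSG00000019929, chromosome 10, 97479609 to 97518143) and Lum (ENSMUSG00000036446, 97565128 to 97572703) stand on the plus strand of a 203 kb cluster with the relatives Kera and Epyc. Aspn (ENSMUSG00000021388, chromosome 13, 49544443 to 49567565) and Ogn (ENSMUSG00000021390, 49608046 to 49624501) share a 120 kb cluster on the plus strand with Ecm2 and Omd, and all 4 of these genes lie opposite Cenpp. Prelp (ENSMUSG00000041577, chromosome 1, 133910304 to 133921414, minus strand) and Fmod (ENSMUSG00000041559, 134037254 to 134048277, plus strand) share a 151 kb cluster with Optc. No protein-coding gene lies between neighbours of the same cluster. Bgn (ENSMUSG00000031375) is at chromosome X, 73483602 to 73495933, on the plus strand, and Podn (ENSMUSG00000028600) at chromosome 4, 108014791 to 108096445, on the minus strand. Podn overlaps Scp2 on the same strand, and Prelp an antisense gene, Gm15851. The sources used here do not say whether counting used strand, so reads of overlapping genes may be shared.

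Base composition followed position. The leading transcript had a GC content of 34.3% in Aspn, 36.3% in Ogn, 41.9% in Lum and 42.8% in Dcn. It was 52.5% in Bgn, 53.7% in Fmod, 53.8% in Prelp and 56.8% in Podn. The 250 bases before the transcription start are shown for Ogn and Aspn, neighbours of low GC content, and for Bgn and Prelp of high GC content. Sequences are from RefSeq (GRCm38.p6), 5′ to 3′ on the strand of the gene, for 6 members matched by symbol. Capitals mark a TATA box (spelled TATAAA), a GC box (GGGCGG), an AP-1 site (TGANTCA) or a CCAAT box on either strand. Their coordinates are chr13:49607765-49608014 (plus) for Ogn, chr13:49544193-49544442 (plus) for Aspn, chrX:73483351-73483600 (plus) for Bgn and chr1:133921402-133921651 (minus) for Prelp.
Ogn: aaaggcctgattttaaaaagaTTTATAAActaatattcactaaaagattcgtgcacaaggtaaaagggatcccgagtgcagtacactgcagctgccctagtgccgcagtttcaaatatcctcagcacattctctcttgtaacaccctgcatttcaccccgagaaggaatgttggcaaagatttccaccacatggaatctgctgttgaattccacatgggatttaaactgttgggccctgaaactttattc
Aspn: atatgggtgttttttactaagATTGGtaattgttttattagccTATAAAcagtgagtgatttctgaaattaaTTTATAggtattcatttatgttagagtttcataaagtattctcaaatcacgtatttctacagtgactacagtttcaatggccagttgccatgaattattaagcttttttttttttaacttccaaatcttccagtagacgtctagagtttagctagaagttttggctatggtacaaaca
Bgn: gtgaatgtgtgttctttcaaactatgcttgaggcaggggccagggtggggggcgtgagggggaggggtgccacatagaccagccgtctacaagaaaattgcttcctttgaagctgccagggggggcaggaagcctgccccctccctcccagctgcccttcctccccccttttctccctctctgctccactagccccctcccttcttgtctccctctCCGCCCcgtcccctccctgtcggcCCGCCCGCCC
Prelp: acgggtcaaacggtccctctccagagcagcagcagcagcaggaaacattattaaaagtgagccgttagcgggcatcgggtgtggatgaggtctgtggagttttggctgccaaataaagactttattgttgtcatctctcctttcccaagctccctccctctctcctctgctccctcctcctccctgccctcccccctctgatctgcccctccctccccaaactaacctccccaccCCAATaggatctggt
The Aspn window was 30.0% GC, a share below which lie 1.47% of 32817 mouse promoter windows of this length, and the Ogn window was 42.0% GC (15.9% lie below). Bgn stood at 64.4% and Prelp at 55.6%, against a median of 52.4% over all windows. Aspn held TATAAA 207 bases upstream of the start and its reverse complement 178 bases upstream, and Ogn held overlapping matches on both strands 229 and 227 bases upstream. TATAAA occurs on either strand in 12.4% of the windows. Bgn held 3 matches to GGGCGG on the minus strand, 34, 10 and 6 bases upstream, the last 2 of them overlapping, and 32.7% of windows hold this motif. The Prelp window held CCAAT 15 bases upstream (33.8% of windows), Aspn held its reverse complement 229 bases upstream, and no TGANTCA (6.75% of windows) occurred in these 4 windows. These matches are a description of the letters, not of bound sites.

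Depth was even, with 28110454 to 31210800 estimated counts per library in the gene table. Of the fibroblast markers, Pdpn, the gene of the sorted protein podoplanin, had 25.1 to 53.9 CPM (counts scaled to library size) and Pdgfra 688 to 1080. Thy1, a surface marker of many fibroblasts, had 44.2, 60.7 and 57.8 CPM in replicates 1, 3 and 4 of the wild type, against 179, 102 and 99.0 CPM in replicates 4, 9 and 10 of DdblGata1 (log2 fold change 1.22 ± 0.26 SE; adjusted p = 0.384 by edgeR and 0.00449 by DESeq2). Col1a1 was among the most abundant genes, with 16403 to 43732 CPM. Leukocyte markers summed to 11.4 to 26.1 CPM in the wild-type libraries, against 10.6 to 15.1 in those of DdblGata1, with Siglecf absent from the table, which holds genes with at least 10 counts in at least 3 libraries. Epithelial markers summed to 475 CPM in wild-type replicate 1 and 78.8 to 119 in the other 5 libraries. Smooth muscle markers were abundant and summed to 7505 to 11951 CPM in the wild-type libraries, against 5194 to 7991 in those of DdblGata1. In bulk RNA, fewer cells of a type and less RNA per cell cannot be told apart.

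Decorin mRNA was by far the most abundant of the group. In TPM, a scale that corrects for transcript length, Dcn had 7980 ± 1774 (SD, n = 6 libraries) and ranked 13 of 15223 genes. It took 62.1% of the summed TPM of the 8 genes. Lum followed with 1792 ± 291 TPM (rank 46), Bgn with 1328 ± 398 (rank 90), Aspn with 821 ± 147 (rank 175) and Ogn with 793 ± 242 (rank 181). A wide step separated these from Prelp (59.2 ± 16.5 TPM, rank 2400), Fmod (46.7 ± 17.9, rank 2998) and Podn (37.1 ± 8.58, rank 3723). Over the 6 libraries the ranges did not overlap between Dcn and Lum, nor between Ogn and Prelp. All other neighbours in the order overlapped, and Aspn exceeded Ogn in 3 of 6 libraries. Together the 8 genes made up 0.933%, 1.15% and 1.33% of all TPM in replicates 1, 3 and 4 of the wild type, against 1.37%, 1.32% and 1.65% in replicates 4, 9 and 10 of DdblGata1.

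**Figure D1:**
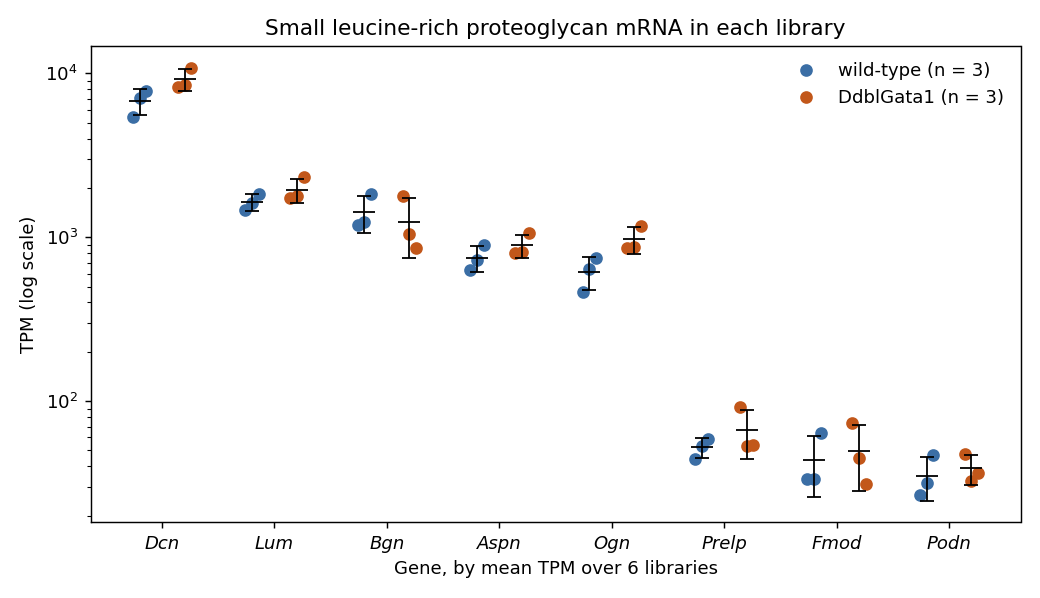
TPM (log scale) of the 8 genes in each library, wild-type on the left and DdblGata1 on the right of each gene, with group mean and SD (n = 3 each). Dcn lies at 5443 TPM or more in every library, and Prelp, Fmod and Podn lie at 91.5 or less.

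Setting the genotypes against each other asked how these mRNAs stand where eosinophils are deficient. None of the 8 genes was called by the quasi-likelihood test of edgeR after Benjamini-Hochberg adjustment over all genes, against 0% of all 15238 genes. Their adjusted p ranged from 0.474 to 0.915, where the lowest of all genes was 0.384. DESeq2 called 1.41% of genes, or 2.95% with 2 surrogate variables, and none of the 8, whose lowest adjusted p by DESeq2 was 0.275. Without adjustment, 1 of the 8 (Ogn) was higher at a p under 0.05, where 6.03% of all genes were, and none was lower, where 4.23% were (10.3% in either direction). The fitted value was higher in DdblGata1 for 7 genes, as for 49.3% of all genes, and lower for Bgn, with a median log2 fold change, DdblGata1 minus wild-type, of 0.17 over the 8 and -0.01 over all genes. The CPM of the groups did not overlap for Dcn and Ogn, both higher in DdblGata1, and 8.98% of all genes were separated in that direction (7.34% in the other).

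Osteoglycin, a class III member linked to collagen fibril assembly, had the largest fitted difference of the 8 in the edgeR fit as reported. Its mRNA stood at 484, 696 and 742 CPM in replicates 1, 3 and 4 of the wild type, against 832, 849 and 1195 CPM in replicates 4, 9 and 10 of DdblGata1 (CPM scaled between libraries by TMM, and given in this order throughout). All DdblGata1 libraries lay above all wild-type libraries, with replicates 4 and 9 close together and replicate 10 well above them. The means were 641 ± 138 and 959 ± 205 CPM (SD, n = 3), and the log2 fold change was 0.58 ± 0.23 (SE; edgeR adjusted p = 0.474). With DdblGata1 replicate 10 left out it was 0.38, and with wild-type replicate 1 left out 0.39. In both cases, and without DdblGata1 replicate 9 (0.64), it no longer passed an unadjusted p of 0.05. With an offset for transcript GC content it was 0.22, smaller in size than Prelp (0.35), Aspn (-0.25) and Bgn (-0.23).

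Decorin, which coats collagen fibrils and binds TGF-beta, had 4345, 5864 and 5921 CPM in the wild-type libraries, against 6067, 6288 and 8393 CPM in those of DdblGata1. The groups were separated only by the step from 5921 to 6067, and the extremes were wild-type replicate 1 and DdblGata1 replicate 10. The means were 5376 ± 894 and 6916 ± 1284 CPM, and the fitted difference was 0.36 ± 0.23 on the log2 scale (SE; edgeR adjusted p = 0.575). Leaving out wild-type replicate 1 gave 0.21, and leaving out DdblGata1 replicate 10 gave 0.18.

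Lumican, a keratan sulfate proteoglycan that limits the thickening of fibrils, had 1803, 2058 and 2165 CPM in the wild-type libraries, against 1963, 2032 and 2767 CPM in those of DdblGata1. Only DdblGata1 replicate 10 lay above the wild-type range. Its log2 fold change was 0.17 ± 0.20 (SE; edgeR adjusted p = 0.768). Asporin, which has a run of aspartate residues in place of glycosaminoglycan chains, had 551, 651 and 746 CPM in the wild-type libraries, against 642, 658 and 894 CPM in those of DdblGata1. Again replicate 10 alone exceeded the wild-type range, and the log2 fold change was 0.17 ± 0.20 (SE; edgeR adjusted p = 0.760). Both values were near 0 once DdblGata1 replicate 10 was left out, at -0.02 for Lum and -0.01 for Aspn.

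Biglycan, a close relative of decorin that also signals through Toll-like receptors when released, was the only member with a lower fitted value. It had 1564, 1698 and 2306 CPM in the wild-type libraries, against 2189, 1288 and 1108 CPM in those of DdblGata1. DdblGata1 replicates 9 and 10 lay below all wild-type libraries, but replicate 4 was near the top of the wild-type range. The means were 1856 ± 396 and 1528 ± 579 CPM, and the log2 fold change was -0.28 ± 0.29 (SE; edgeR adjusted p = 0.730). It was -0.63 without DdblGata1 replicate 4 (edgeR adjusted p = 0.238).

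The 3 members of lowest TPM overlapped between the genotypes as well. Fibromodulin, which guides collagen cross-linking, had 66.4, 68.8 and 121 CPM in the wild-type libraries, against 135, 83.1 and 60.3 CPM in those of DdblGata1, with a log2 fold change of 0.12 ± 0.33 (SE; edgeR adjusted p = 0.904). Prelp, which anchors basement membranes to connective tissue, had 91.3, 114 and 116 CPM in the wild-type libraries, against 174, 102 and 108 CPM in those of DdblGata1. DdblGata1 replicate 4 stood apart from all other libraries, and the log2 fold change of 0.26 ± 0.23 (SE; edgeR adjusted p = 0.680) became -0.03 without it. Podocan had 49.2, 60.5 and 81.9 CPM in the wild-type libraries, against 81.2, 55.2 and 65.2 CPM in those of DdblGata1 (log2 fold change 0.07 ± 0.22 SE; edgeR adjusted p = 0.915). For Fmod and Podn the highest values were those of wild-type replicate 4 and DdblGata1 replicate 4.

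Across libraries Dcn, Lum, Ogn and Aspn had like profiles, and the other members formed a looser group. This grouping was made after the values were seen. Likeness was measured as the root mean square, over the 6 libraries, of the difference between 2 genes in log2 CPM centred on each gene's mean, so that a smaller value means more alike profiles. Among Dcn, Lum, Ogn and Aspn it ranged from 0.05 to 0.24 (median 0.13 over 6 pairs). Lum and Aspn, on different chromosomes, were the most alike (0.05). Among Bgn, Fmod, Prelp and Podn it ranged from 0.18 to 0.31 (median 0.29). The 16 pairs across the 2 groups lay between 0.26 and 0.64 (median 0.45), with Bgn and Ogn farthest apart. Podn was nearer to Aspn (0.258) than to Fmod (0.283) or Bgn (0.290) of its own group. The first group was lowest in wild-type replicate 1 and highest in DdblGata1 replicate 10, where Ogn stood at -0.67 and 0.63 and Dcn at -0.47 and 0.48 relative to its own mean on the log2 scale. In the second group Bgn was lowest in DdblGata1 replicate 10 (-0.56) and highest in wild-type replicate 4 (0.50), and Fmod ran from -0.49 to 0.67 in DdblGata1 replicates 10 and 4. Prelp stood at 0.60 in DdblGata1 replicate 4 and at 0.01 in wild-type replicate 4.

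**Figure D2:**
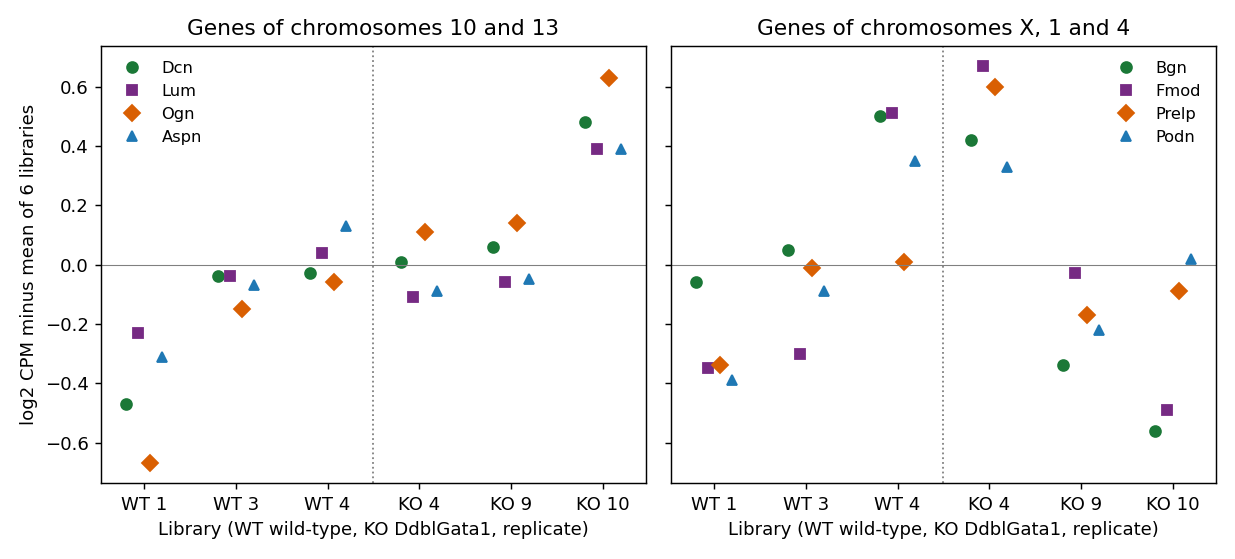
Centred log2 CPM of each gene in each library (WT wild-type, KO DdblGata1, with replicate number). Dcn, Lum, Ogn and Aspn (left) are lowest in wild-type replicate 1 and highest in DdblGata1 replicate 10, and Bgn and Fmod (right) are highest in replicate 4 of both genotypes.

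Among 10104 genes with a mean log2 CPM of at least 3, the gene most like Bgn was Col1a2, the second chain of type I collagen (0.04), followed by Ppp1r3d (0.07). Col1a2 had 30039 CPM in the wild-type libraries, against 24713 in those of DdblGata1, with a log2 fold change of -0.28 ± 0.32 (SE; edgeR adjusted p = 0.759). For Dcn the nearest gene was Ecm2, itself a leucine-rich repeat protein of the chromosome 13 cluster (0.04), and then Adamtsl1 (0.04). For Lum they were Cdc40 and Tmem59 (0.04 each), for Aspn Aph1b (0.03) and Brox (0.05), and for Ogn Rock2 and Wrn (0.05 each). Fmod was nearest to Arsi and Slc1a4 (0.07 each), Prelp to Pxn (0.07) and Alkbh5 (0.08), and Podn to Pogk (0.06) and Sh3pxd2b (0.08). These distances describe the 6 libraries shared by all genes and were not tested.

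In the DdblGata1 libraries some ratios between members were steadier than the levels themselves, and this was not particular to neighbours. Dcn to Aspn, on different chromosomes, gave 10.3, 10.4 and 10.2. The neighbours Prelp and Fmod gave 1.24, 1.18 and 1.73. TPM ratios were examined after the values had been seen and are given without a test, since the smallest two-sided p of an exact permutation of 3 against 3 libraries is 0.1. The ratio of Ogn to Aspn, of the same cluster, was 0.731, 0.890 and 0.828 in the wild type, against 1.08, 1.07 and 1.11 in DdblGata1. Thus Aspn exceeded Ogn in every wild-type library and Ogn exceeded Aspn in every DdblGata1 library. The DdblGata1 ratios spanned 1.07 to 1.11, although the Ogn level itself ran from 862 to 1177 TPM in those libraries. A ratio to Aspn that was separated in this direction was found for 4.13% of all genes.

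The ratio of Dcn to Lum, neighbours on chromosome 10, was 3.71, 4.39 and 4.22 in the wild type, against 4.76, 4.77 and 4.67 in DdblGata1. Here too the groups did not overlap, by a smaller step, and 4.68% of all genes had a ratio to Lum that was separated in this direction. Lum to Aspn gave 2.32, 2.24 and 2.05 in the wild type, against 2.17, 2.19 and 2.19 in DdblGata1, with overlap. Dcn to Bgn, the 2 class I proteoglycans that carry chondroitin or dermatan sulfate, ran from 4.25 to 5.71 in wild-type and gave 4.59, 8.08 and 12.5 in DdblGata1 libraries. DdblGata1 replicate 4 was thus within the wild-type range, and replicates 9 and 10 were above it. These 4 pairs were picked from the 28 possible pairs of members, of which 8 (28.6%) did not overlap between the genotypes. The others without overlap were Dcn to Aspn, Dcn to Ogn, Lum to Ogn, and Bgn to each of Prelp, Fmod and Podn. All of these pair genes on different chromosomes. The pairs reuse the same few genes, and the same share over pairs of all genes was not computed. The shares to Aspn and Lum given above are for a single direction, so they cannot be set beside this count. It is not read as a result about the members.

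**Figure D3:**
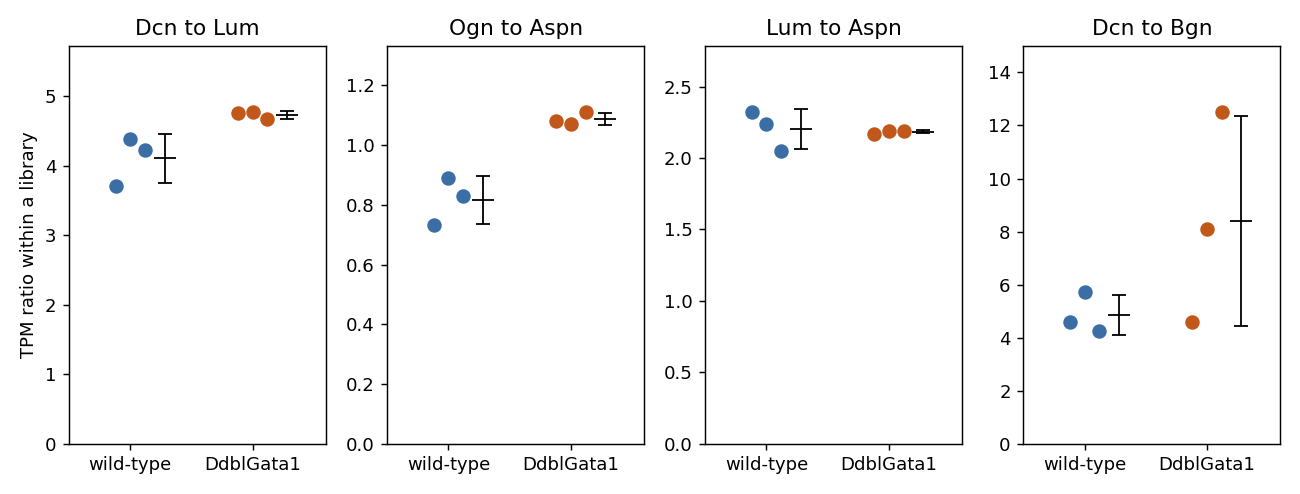
TPM ratios within each library for 4 pairs of members, with group mean and SD (n = 3 each) beside the points. Dcn to Lum and Ogn to Aspn do not overlap between the genotypes, Lum to Aspn does, and Dcn to Bgn spreads from 4.59 to 12.5 in DdblGata1 libraries.

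Transcript GC content moved with the difference between the groups over all genes. Among genes with a mean log2 CPM of at least 4, the median log2 fold change was 0.27 for the 105 genes under 38% GC, 0.23 from 38% to 42% and 0.15 from 42% to 46%. It was -0.05 from 50% to 54%, -0.12 from 54% to 58% and -0.18 above 58%. In DdblGata1 replicate 10 alone the median centred value ran from 0.34 in the lowest to -0.32 in the highest GC range, and in wild-type replicate 1 from -0.23 to 0.13. These are the libraries at the extremes for Dcn, Lum, Ogn and Aspn. The 4 members of low GC content had values from 0.17 (Lum and Aspn) to 0.58. Ogn (0.58) and Dcn (0.36) lay above the median of their GC ranges, and Lum and Aspn lay below it. Of the 4 of high GC content, Bgn (-0.28) lay below the median of its GC range, and Prelp (0.26), Fmod (0.12) and Podn (0.07) lay above it.

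An offset that removes the GC trend from each library was therefore added after the data were seen. With it, the log2 fold change of Ogn was 0.22 ± 0.18 (SE; edgeR adjusted p = 0.710) and that of Dcn 0.19 ± 0.19. Lum stood at -0.03 and Aspn at -0.25 ± 0.16 (adjusted p = 0.644), so that both changed sign. Bgn was -0.23, Fmod 0.20, Prelp 0.35 and Podn 0.21. None of the 8 passed an unadjusted p of 0.05, where 1431 of 15238 genes did. With the 2 surrogate variables from the deposited sample sheet as covariates, Ogn had 0.37, Dcn 0.18, Lum 0.01, Aspn 0.02, Bgn -0.14, Fmod 0.33, Prelp 0.31 and Podn 0.09, and none was called. The part of base composition in the differences between genotypes was not tested beyond this. The ratios of Ogn to Aspn and of Dcn to Lum set genes of nearby GC content side by side (36.3% and 34.3%, and 42.8% and 41.9%). The offset moves genes of nearby GC content alike, so it is no test of these ratios.

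**Figure D4:**
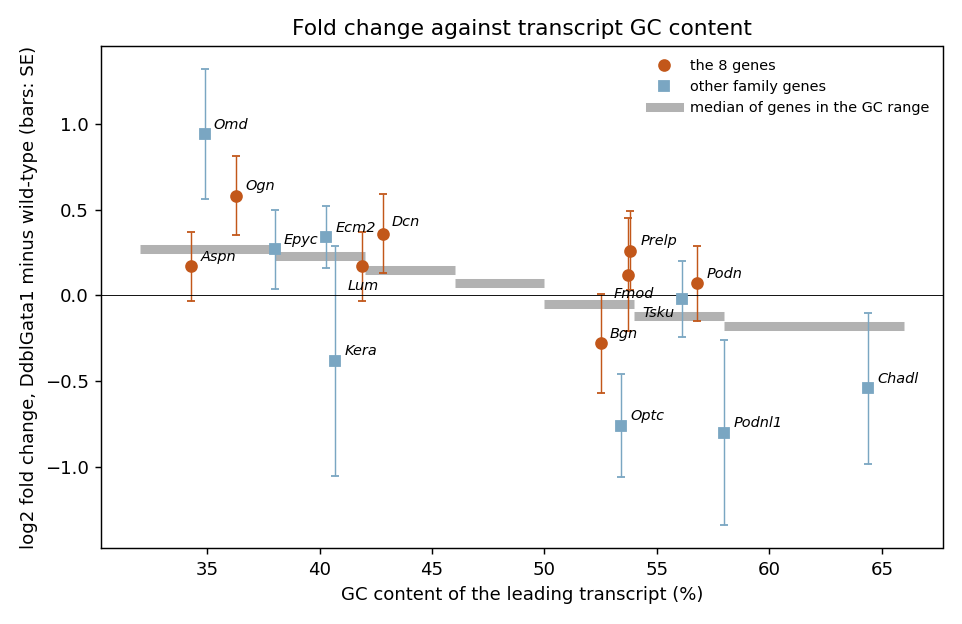
Fitted log2 fold change (DdblGata1 minus wild-type, bars SE) against GC content of the leading transcript for the 8 genes and 8 further family genes. Grey bars give the median of genes with a mean log2 CPM of at least 4 in each GC range (the outer ranges are open-ended), falling from 0.27 to -0.18.

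**Figure D5:**
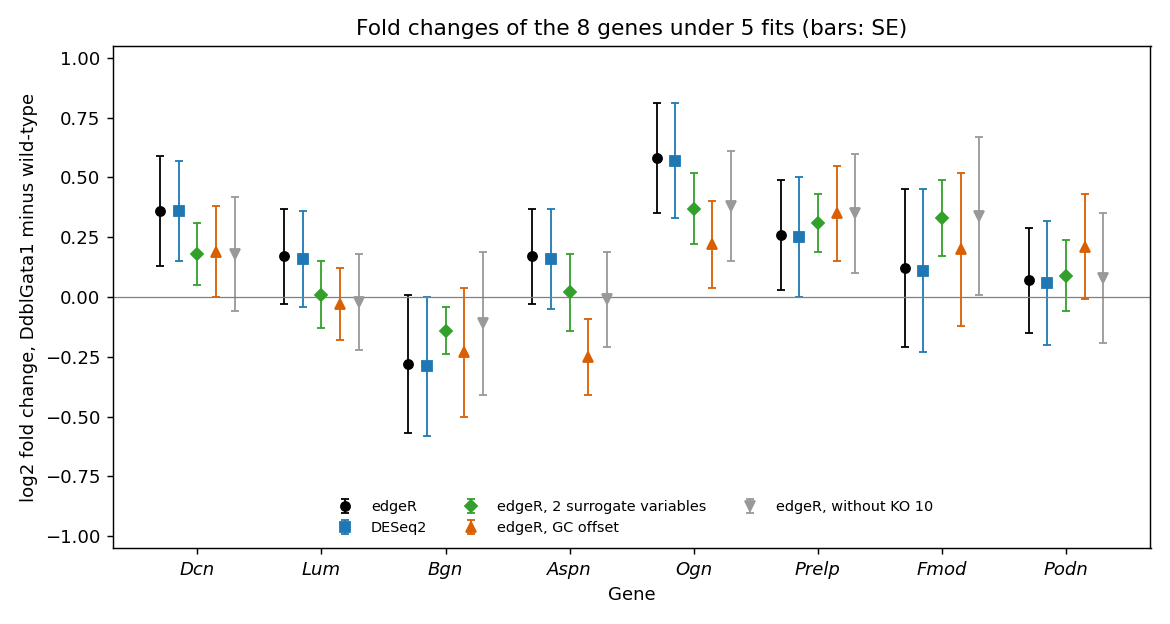
Log2 fold change (bars SE) of the 8 genes, ordered by TPM, under edgeR, DESeq2, edgeR with 2 surrogate variables, edgeR with the GC offset, and edgeR without DdblGata1 replicate 10. Ogn and Dcn stay above 0 and Bgn below 0 in these 5 fits, and Lum and Aspn lie on both sides of 0.

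Transcript choice turned the direction of 1 member, Fmod. Lum and Ogn have a single transcript each. Dcn was split between Dcn-201 (53.6% to 59.8% of gene TPM) and Dcn-202 (40.2% to 46.3%), which have the same coding exons. In Fmod, the short transcript Fmod-202 of 532 bases was listed at 0 in 4 libraries and took 22.9% and 29.2% of gene TPM in DdblGata1 replicates 4 and 9, from 47.9 and 47.4 estimated counts. The length-scaled gene table gave Fmod 3679 and 2512 counts in these 2 libraries, where the plain sums of transcript counts were 3070 and 2025, and its log2 fold change was -0.18 with plain sums in place of 0.12.

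Other members had minor noncoding transcripts. The processed transcript Bgn-203 took 11.7% to 18.4% of Bgn TPM, and Prelp-202 took 9.54% to 30.2% of Prelp TPM. In Podn, Podn-203 took 22.2% to 34.1% in 5 libraries and 0.00827% in wild-type replicate 4, where Podn-201 with the same coding exons took 34.7%. Transcript usage was tested with diffSpliceDGE for 5 members (Bgn, Podn, Dcn, Prelp and Aspn). None of the 5 was called (adjusted p = 1 for each), where 0.254% of 9447 genes were. Fmod was not among the members tested. The lowest unadjusted p of a member was 0.195, for Bgn.

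Of 11 further family genes, 8 were in the table and none was called by edgeR. At an unadjusted p under 0.05, 1 was higher and 1 lower, where 6.03% and 4.23% of all genes were. The median log2 fold change of the 8 was -0.20. Omd (osteomodulin, a bone keratan sulfate proteoglycan), between Aspn and Ogn on chromosome 13, had 2.10, 3.93 and 4.16 CPM in the wild-type libraries, against 4.40, 6.09 and 9.04 CPM in those of DdblGata1. The groups did not overlap, as for its neighbour Ogn, and the log2 fold change was 0.94 ± 0.38 (SE; edgeR adjusted p = 0.483), or 0.51 with the GC offset. Ecm2, at the other end of that cluster, had 130 ± 18.5 and 164 ± 31.6 CPM, with overlap.

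Optc (opticin, known from the vitreous of the eye), next to Prelp on chromosome 1, had 37.6, 35.7 and 17.3 CPM in the wild-type libraries, against 15.1, 20.5 and 18.1 CPM in those of DdblGata1. Wild-type replicates 1 and 3 were high, replicate 4 was within the DdblGata1 range, and the log2 fold change was -0.76 ± 0.30 (SE; edgeR adjusted p = 0.474). Tsku (28.9 and 28.5 CPM) was nearly level, and Epyc (7.53 and 9.07 CPM) and Kera (3.26 and 2.51 CPM), cartilage and cornea genes beside Lum, were scarce. Podnl1 had 0.745 and 0.426 CPM, and Chadl a log2 fold change of -0.54. Chad, Nyx and Nepn were not in the table and had 0 to 12 estimated counts in each library.

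The enzymes that build the glycosaminoglycan chains were measured in full, and none of 22 genes for chondroitin and dermatan sulfate was called by edgeR. At an unadjusted p under 0.05, 1 was higher and 2 lower, where 6.03% and 4.23% of all genes were. The median log2 fold change of the 22 was -0.09. Dsel, an epimerase that turns chondroitin into dermatan sulfate, had 56.4, 62.3 and 77.5 CPM in the wild-type libraries, against 89.5, 103 and 113 CPM in those of DdblGata1. Its groups did not overlap, and the log2 fold change was 0.64 ± 0.17 (SE; edgeR adjusted p = 0.384). The related epimerase Dse had 62.2 and 88.7 CPM with overlap. The lower genes were Chst3 (21.5 and 13.3 CPM) and Chst15. Chst15, which adds a further sulfate to chondroitin sulfate, had 51.1 and 39.5 CPM without overlap (log2 fold change -0.37, edgeR adjusted p = 0.475). The chain-initiating Xylt1 and Csgalnact1, the polymerase Chsy1 and the sulfotransferases Chst11 and Chst14 overlapped, with log2 fold changes from -0.33 (Chst11) to 0.26 (Csgalnact1).

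Of 9 genes for keratan sulfate and tyrosine sulfation, 1 was higher and none lower at an unadjusted p under 0.05, where 6.03% and 4.23% of all genes were. None of the 9 was called (median 0.19). The higher gene was the galactosyltransferase B4galt1, with 206 ± 25.6 and 263 ± 12.6 CPM. Tpst2, a tyrosine sulfotransferase, had 14.3 and 18.2 CPM without overlap (edgeR adjusted p = 0.502). The keratan sulfate enzymes B3gnt7 (2.16 and 2.37 CPM) and Chst1 (5.97 and 8.20 CPM) were scarce.

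Collagens and their modifying enzymes, the binding partners of the family, gave 0 of 15 genes at an unadjusted p under 0.05 in either direction. The share over all genes was 10.3%, and the median of the 15 was 0.03. Col1a1 followed the order of Bgn, with 30664, 31873 and 43732 CPM in the wild-type libraries, against 42395, 19380 and 16403 CPM in those of DdblGata1 (log2 fold change -0.44 ± 0.38 SE; edgeR adjusted p = 0.677). Col3a1 (58459 and 60419 CPM), Col5a1 (4022 and 4069 CPM) and Col6a1 (4085 and 4224 CPM) were close in mean. The lysyl hydroxylases Plod2 and Plod1 had the smallest p of the list, with log2 fold changes of 0.29 and -0.23 (edgeR adjusted p = 0.517 and 0.646).

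Among 17 ligands and receptors, 4 were higher and 1 lower at an unadjusted p under 0.05, where 6.03% and 4.23% of all genes were. None of the 17 was called, and their median was 0.01. The higher genes were receptors. Tlr4, a receptor for free biglycan and decorin, had 14.0, 23.6 and 22.0 CPM in the wild-type libraries, against 28.6, 33.1 and 51.1 CPM in those of DdblGata1 (log2 fold change 0.92 ± 0.28 SE; edgeR adjusted p = 0.416). Tlr2 stood at 7.56 and 12.4 CPM, Met, a receptor bound by decorin, at 26.0 and 44.2, and Egfr, another decorin receptor, at 99.3 and 153. In each of these 4 the DdblGata1 libraries lay above the wild-type libraries. The lower gene was Bmp2 (26.7 and 16.1 CPM). The ligands Tgfb1 (21.1 and 15.5 CPM), Tgfb2 (101 and 92.9 CPM) and Tgfb3 (194 and 158 CPM) and the decorin uptake receptor Lrp1 (1516 and 1463 CPM) overlapped.

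Of 11 measured proteases that cleave these proteoglycans, 3 were higher at an unadjusted p under 0.05, where 6.03% of all genes were, and none was lower, with a median of 0.18. Adamts5, an aggrecanase, had 71.9, 179 and 146 CPM in the wild-type libraries, against 264, 305 and 371 CPM in those of DdblGata1. Its log2 fold change was 1.24 ± 0.32 (SE), with an adjusted p of 0.384 by edgeR and 0.0176 by DESeq2. Htra1, a secreted serine protease, had 163, 224 and 212 CPM in the wild-type libraries, against 353, 295 and 338 CPM in those of DdblGata1. It differed by 0.72 ± 0.17 (SE), with an adjusted p of 0.384 by edgeR and 0.0237 by DESeq2. The third, Adamts4, had 37.9 and 53.4 CPM. Adamts5 and Htra1 were the only 2 of the 99 genes in the 7 companion lists called by DESeq2, which called 1.41% of all genes, and edgeR called none. Bmp1, which trims the propeptides of biglycan and decorin (422 and 469 CPM), Mmp2 (1206 and 1232 CPM) and Mmp14 (685 and 776 CPM) overlapped.

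Of the large and cell surface proteoglycans 11 of 17 had a lower fitted value, where 49.3% of all genes had a higher one. At an unadjusted p under 0.05 none was higher and 3 of 17 lower, where 6.03% and 4.23% of all genes were. None of the 17 was called, and their median was -0.30. Cspg4, also a pericyte marker, had 109 and 73.0 CPM without overlap (log2 fold change -0.58; edgeR adjusted p = 0.433), and the glypicans Gpc1 and Gpc4 had 125 and 83.6 and 70.9 and 56.3 CPM. Pericyte markers as a whole summed to 1771 to 2326 CPM in the wild-type libraries, against 1370 to 1471 in those of DdblGata1. Of these markers 4 of 5 (Rgs5, Cspg4, Kcnj8 and Abcc9) were lower at an unadjusted p under 0.05, where 4.23% of all genes were.

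Marker lists of fibroblast subsets, of handling and of other cell types were read beside the proteoglycans. Of 6 markers of adventitial and deep fibroblasts, cells known for abundant Dcn, 3 (Dpp4, Cd34 and Clec3b) were higher. This was at an unadjusted p under 0.05, where 6.03% of all genes were higher. None of the 6 was called by edgeR, and DESeq2 called Dpp4 (adjusted p = 3.61e-04). The 6 markers summed to 1230, 2143 and 1843 CPM in the wild-type libraries, against 2683, 2555 and 3059 CPM in those of DdblGata1. The sum was lowest in wild-type replicate 1 and highest in DdblGata1 replicate 10, as Dcn and Ogn were. Early genes of the dissociation response were higher at an unadjusted p under 0.05 in 6 of 6, where 6.03% of all genes were. None of the 6 was called by edgeR, and their sums were 4129 to 4281 and 5670 to 6876 CPM. DESeq2, which called 1.41% of all genes, called Zfp36 (adjusted p = 0.00188) and Egr1 (adjusted p = 0.0165) of them. Markers of smooth muscle were lower at an unadjusted p under 0.05 in 3 of 5 (Acta2, Actg2 and Des), where 4.23% of all genes were. None of these was called by edgeR, and DESeq2 called Des (adjusted p = 0.0303). Markers of tendon and cartilage, another site of Fmod and Aspn, summed to 11.7 to 24.2 CPM with Tnmd and Col2a1 absent from the table. Villus tip fibroblast markers summed to 84.8 to 104 and 97.9 to 119 CPM, wild-type libraries first (median log2 fold change 0.06). Of these 5 markers, 1 (Foxl1) was lower at an unadjusted p under 0.05 and none higher. In the same order, interstitial cell of Cajal markers summed to 365 to 570 and 162 to 394 CPM. Mesothelial markers gave 188 to 345 and 231 to 431, and enteric glia 79.0 to 227 and 96.6 to 175. Of the 4 mesothelial markers, 1 (Wt1) was higher at an unadjusted p under 0.05, where 6.03% of all genes were. Wt1 had a log2 fold change of 0.94 ± 0.21 (SE), with an adjusted p of 0.384 by edgeR and 0.0163 by DESeq2. The part of these cell types and of handling in the values of the 8 genes was not tested.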

How the data were processed

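Per the labels' protocols, 100 ng of total RNA went into each stranded library. The submitters' processing notes name bcl2fastq 2.2, kallisto, R 4.2.2, DESeq2, mm10 and GRCm38.p6, without roles; the use of strand in counting is not stated. The authors deposited estimated counts (expected counts, rounded) of 15238 genes, and kallisto TPM, estimated counts and other values (transcript lengths) of 115270 transcripts. Gene TPM multiplied by length and rescaled to each library's total gave 99.7% of the table back, with a tolerance of 1% plus 1 count. The score columns of the deposited sample sheet, its 2 surrogate variables, served as covariates in an alternative; its size factor, a ratio made by the authors, was not used.

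Genes were tested with edgeR 4.0.16 (TMM, filterByExpr, which removed 0 genes, robust quasi-likelihood fit) in R 4.3.3, with Benjamini-Hochberg adjustment at 0.05. Alternatives were DESeq2 1.42.0, limma 3.58.1 (voom, and trend on log2(TPM + 1) or + 0.1), other scalings and filters, unscaled counts, surrogate variables and each library left out. A GC offset (lowess, span 0.3) was added after the data were seen. Centred log2 CPM used a prior count of 2. The tests were tried on simulated data. Named genes are the 8 members, listed relatives, a preset set of companion genes, the 2 nearest profiles of each member and the 2 lowest p of each list; further genes behind small counts (such as Bmp2 and Gpc4) and markers were named after their values were seen. Members and lists were chosen with earlier results of these data known.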

Additional observations from a re-analysis of the deposited data

How the results depend on the processing

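No alternative called any of the 8 genes. The count of genes called by edgeR, 0 of 15238 (1564 at an unadjusted p under 0.05), became 214 with DESeq2, 449 with DESeq2 and the 2 surrogate variables, and 0 to 1 with each library left out (Il6 without DdblGata1 replicate 4). For the companion lists, the count of 0 became 2 with DESeq2 and 5 (with Dse, Egfr and Met) with DESeq2 and surrogate variables. Members at an unadjusted p under 0.05 numbered 1 in the reported fit and 0 with the GC offset (1431 of 15238 genes). They numbered 2 with limma on log2(TPM + 1) or log2(TPM + 0.1) (Dcn and Ogn), against 1626 or 1633 of 15223 genes. With edgeR and surrogate variables they numbered 2 (Ogn and Prelp), against 1861 of 15238 genes. With each library left out they numbered 0 to 2. The number over all genes then ran from 818 without DdblGata1 replicate 10 (0 members) to 2715 without DdblGata1 replicate 4 (2 members). Dcn, Ogn and Bgn kept their direction in all 18 alternatives. The direction of Fmod turned with unscaled transcript counts (-0.18) and ranged from -0.25 to 0.46 with each library left out, which also turned Podn (-0.10 to 0.29), Prelp (-0.03 to 0.38), Lum (-0.02 to 0.26) and Aspn (-0.01 to 0.28). The GC offset turned Lum (-0.03) and Aspn (-0.25). Apart from that offset and the unscaled counts, the causes of these turns were not tested. No paired analysis was possible because the groups share only replicate number 4. The SE of the members' fold changes was 0.20 to 0.33 with 3 libraries a group; the effect of depth on it was not tested.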
